A study of Mus musculus with 39 samples.

Results

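The colon of Cd177 knockout (KO) mice with acute pancreatitis (AP) was compared with the colon of KO mice after a sham operation. The comparison comprised every KO colon library of the series, 9 of 39 libraries, with 4 in the AP group (replicates 1, 3, 4 and 5) and 5 in the sham group (replicates 1 to 5). Both groups carried the Cd177 knockout on the C57BL/6N background. Wild-type (WT) colon with AP and WT colon after sham operation, 5 libraries each, served for the comparison of genotypes. The labels give no age or sex of the mice, no way of inducing pancreatitis, no time of collection and no extent of the deletion. Nothing in the labels states that each library came from a separate mouse, so the p-values measure the spread between libraries.

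Acute pancreatitis is an inflammation of the pancreas in which digestive enzymes damage their own organ, and in severe disease the gut barrier can fail. The colon lining is renewed from crypt stem cells, kept covered with mucus by goblet cells and supplied by a capillary bed in the mucosa. Ligands of the epidermal growth factor (EGF) receptor family, several of them released from epithelial cells, drive its repair after injury. CD177 is a surface glycoprotein of neutrophils that binds the endothelial adhesion molecule PECAM1 and presents proteinase 3, and in mice the gene is also expressed outside neutrophils.

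Values are FPKM, a read density scaled to gene length and library size, as the authors deposited them. Cd177 was listed at 0 in all 4 AP and all 5 sham libraries of KO colon. In WT colon it averaged 60.7 ± 11.5 FPKM with AP and 43.2 ± 5.6 FPKM after sham operation (SD, n = 5 each). The difference between genotypes had p = 0.0159 with AP and p = 0.00794 after sham operation (exact two-sided permutation tests). The knockout labels and the gene's own values therefore go together in every colon library.

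Library totals, read from the steps of the FPKM values, were 78.4 to 98.6 M reads in KO AP libraries and 77.8 to 91.2 M reads in KO sham libraries. All 12 colon identity genes on the list passed the filter on low values, against 4 of 15 small intestinal genes. Sis and Apoa4 were at 0 or under 0.2 FPKM in all KO libraries. Slc5a1, the sodium-coupled glucose transporter, was present at 28 to 63.7 FPKM in AP and at 32.8 to 63.1 FPKM in sham libraries. Fabp6, an ileal bile acid binding protein, measured 1.74 to 34.4 FPKM in AP and 1.87 to 50.3 FPKM in sham libraries, highest in AP replicate 1 and sham replicate 5. Sham replicate 1 stood apart from its group. Its correlation across genes with the AP libraries averaged 0.957, above its average of 0.94 with the other sham libraries. AP replicate 1 likewise averaged 0.945 with the sham libraries and 0.934 with the other AP libraries, and AP replicate 4 averaged 0.946 and 0.94. All were kept under their labels, and counts below that move without sham replicate 1 are given both ways. Leaving out a library that resembles the other group favours wider differences between the groups. Results without sham replicate 1 are therefore no independent support for a difference. The position along the colon may have differed as well: Hoxd13, a marker of the distal gut, ranged from 1.08 to 109 FPKM in AP libraries and from 1.02 to 80.2 FPKM in sham libraries, and its part in the results was not tested.

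No gene passed an adjusted p of 0.05 between AP and sham in KO colon (limma with Benjamini-Hochberg adjustment, 0.0% of 15001 genes tested, lowest adjusted p 0.443). At an unadjusted p under 0.05, 687 genes were higher with AP (4.58%) and 912 lower (6.08%), 1599 in all. With TPM scaling, 30.9% of the genes past the unadjusted threshold were higher, with upper quartile scaling 61.6%, and as reported 43.0%. The groups did not overlap for 234 genes that were higher in all AP libraries than in any sham library (1.56%) and for 196 that were lower (1.31%). Without sham replicate 1 these numbers were 690 (4.6%) and 976 (6.51%). Counts of list members without overlap are to be read beside these shares, in the setting with the same libraries. A fit with all 4 colon groups, which shares one variance between knockout and wild type, called 6 genes (0.04%): Ogt, Matr3 and Wdr37 higher, and Areg, Thrsp and Mid1ip1 lower. Where a gene's log2 change in the Results below has no adjusted p beside it, the adjusted p in the knockout fit was 0.443 for that gene. All log2 changes are AP minus sham on the log2(FPKM + 1) scale with their standard error.

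The lowest p of the comparison belonged to Areg, which encodes amphiregulin, a ligand of the EGF receptor that supports epithelial repair. Areg measured 12.2, 11.7, 17.3 and 11.8 FPKM in the AP libraries, against 42.4, 36.8, 30.1, 25.4 and 40.2 FPKM in the sham libraries. Every AP library lay below every sham library. The log2 change was -1.33 ± 0.19 (limma, unadjusted p = 3.24e-05). In the fit with all 4 groups its adjusted p was 0.0118. Hbegf, another ligand released from the cell surface, measured 4.75, 7.69, 7.99 and 4.65 FPKM with AP, against 14.9, 9.42, 9.72, 13.8 and 14.5 FPKM in sham colon. These groups did not overlap either (log2 change -0.90 ± 0.22). Ereg, the gene of epiregulin, measured 0.577, 0.703, 1.55 and 2.36 FPKM with AP, against 3.44, 2.1, 4.04, 4.75 and 5.11 FPKM in sham colon. Its groups overlapped through the highest AP and the lowest sham library, and the log2 change was -1.12 ± 0.27.

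The other ligands lay closer to no change: the log2 change was -0.56 for Btc, -0.37 for Nrg1, -0.17 for Tgfa and -0.13 for Egf, with adjusted p-values of 0.475 to 0.791 in the knockout fit. Among the receptors, Egfr had a log2 change of -0.09 and an adjusted p of 0.887 in the limma fit. Erbb2 had a log2 change of 0.39 (adjusted p = 0.488 with limma) and Erbb3 of 0.65. Erbb3 measured 33.8, 43.7, 39.2 and 24.3 FPKM with AP, against 34.4, 23.5, 20.2, 16.6 and 17.1 FPKM in sham colon, with sham replicate 1 inside the AP range. Of the 10 EGF family genes tested, 2 ligands were lower without overlap and none was higher without overlap. With sham replicate 1 left out, the same number was lower and 2 receptor genes, Erbb2 and Erbb3, were higher without overlap. The list's median log2 change was -0.27, against -0.03 over all genes tested.

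Plaur and Epha2, both known targets of growth factor signalling, were low in the same libraries. Plaur, the receptor of urokinase on the cell surface, measured 2.07, 2.16, 2.46 and 1.74 FPKM with AP, against 6.44, 3.62, 6.49, 4.87 and 5.69 FPKM in sham colon (log2 change -1.03 ± 0.18). Epha2, an ephrin receptor of epithelial cells, measured 4.54, 3.35, 6.39 and 5.09 FPKM with AP, against 10.4, 10.2, 12.4, 8.07 and 8.64 FPKM in sham colon (log2 change -0.92 ± 0.19). Neither gene had an AP library within the sham range.

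Because Areg, Plaur and Epha2 were low together, the 250 bases before their annotated starts are shown, from RefSeq on GRCm38.p6, plus strand. Capitals mark the cyclic AMP response element TGACGTCA and the AP-1 site TGANTCA, searched on both strands. The regions are chr5:91139349-91139598 for Areg, chr7:24462233-24462482 for Plaur and chr4:141300971-141301220 for Epha2.
Areg: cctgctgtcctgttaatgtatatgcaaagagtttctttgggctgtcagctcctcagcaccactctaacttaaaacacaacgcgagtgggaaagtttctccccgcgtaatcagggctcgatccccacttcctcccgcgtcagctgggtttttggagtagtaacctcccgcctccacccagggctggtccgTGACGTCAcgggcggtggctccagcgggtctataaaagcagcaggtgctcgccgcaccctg
Plaur: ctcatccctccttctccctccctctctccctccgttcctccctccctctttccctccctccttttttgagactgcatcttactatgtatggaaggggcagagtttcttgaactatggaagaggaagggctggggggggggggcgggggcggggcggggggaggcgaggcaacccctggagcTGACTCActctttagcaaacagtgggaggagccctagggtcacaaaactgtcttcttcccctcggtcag
Epha2: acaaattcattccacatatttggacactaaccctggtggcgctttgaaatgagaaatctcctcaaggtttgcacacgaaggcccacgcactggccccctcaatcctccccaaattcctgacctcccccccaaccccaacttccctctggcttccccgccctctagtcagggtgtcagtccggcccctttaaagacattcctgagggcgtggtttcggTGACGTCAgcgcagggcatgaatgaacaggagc
Areg and Epha2 each held 1 cyclic AMP response element and Plaur held 1 AP-1 site. Of 10596 tested genes with a promoter in the table, 2.70% held TGACGTCA and 4.60% held TGANTCA in these 250 bases. Among genes lower without overlap, each motif was in 2 of 133 promoters (1.5%), and among genes higher without overlap TGACGTCA was in 9 of 163 (5.52%). These are counts of letters in a window and say nothing of binding.

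Immediate early genes, which encode transcription factors induced within minutes of stimulation, were mixed. Of 21 tested, 17 had a negative log2 change and the median was -0.32, and 1 gene, Ier5, was lower without overlap. With sham replicate 1 left out, 1 gene was lower and 1 higher without overlap, against 6.51% and 4.6% of all genes. At an unadjusted p under 0.05 in all libraries, 6 were lower and 1 higher, against 6.08% and 4.58% of all genes. Fos measured 51.0, 52.7, 69.4 and 30.3 FPKM with AP, against 168, 59.5, 67.7, 108 and 147 FPKM in sham colon. Egr1 measured 2.81, 4.21, 4.78 and 5.81 FPKM with AP, against 34.6, 5.41, 5.58, 17.5 and 10.8 FPKM in sham colon. The stress factor Atf3 measured 12.9, 16.9, 22.3 and 13.8 FPKM with AP, against 32.3, 19.7, 34.0, 40.7 and 32.6 FPKM in sham colon, with sham replicate 2 inside the AP range. For Fos and Egr1 the sham libraries spread over several-fold, with replicates 1, 4 and 5 high and replicates 2 and 3 near the AP values.

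**Figure D1:**
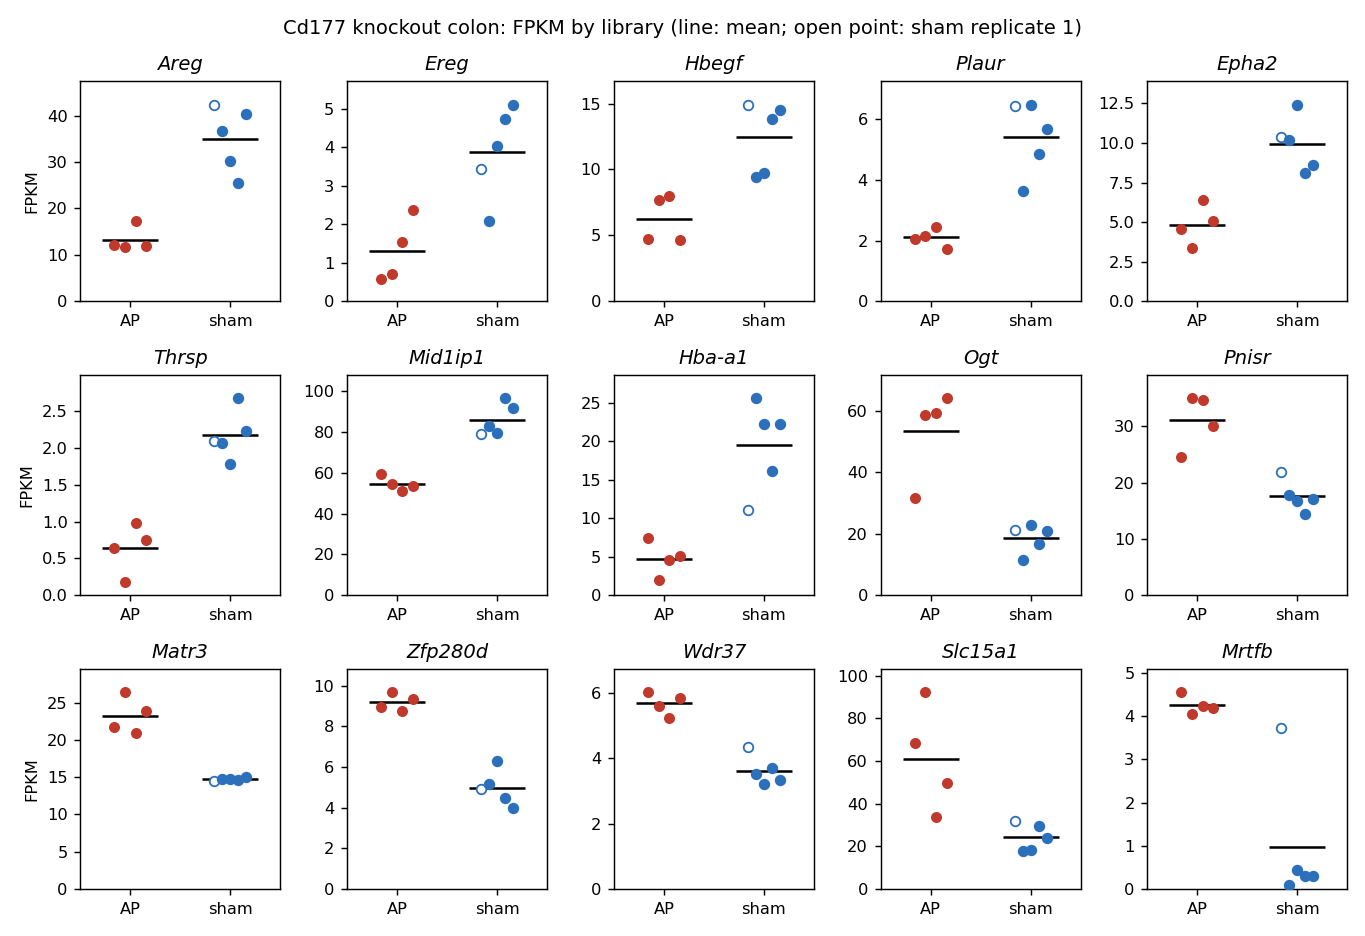
FPKM of 15 genes in each KO colon library, AP on the left and sham on the right of every panel; points are libraries, lines are group means and the open point is sham replicate 1. Areg lies between 11.7 and 17.3 FPKM with AP and between 25.4 and 42.4 FPKM in sham colon, and for Mrtfb sham replicate 1 lies just below the AP libraries.

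Thrsp and Mid1ip1 encode a related pair of proteins that bind each other and regulate fatty acid synthesis, and both were lower with AP. Thrsp measured 0.636, 0.183, 0.979 and 0.75 FPKM with AP, against 2.1, 2.06, 1.79, 2.67 and 2.23 FPKM in sham colon (log2 change -0.97 ± 0.18). Mid1ip1 measured 59.4, 54.4, 51.1 and 53.5 FPKM with AP, against 79.1, 82.9, 79.5, 96.5 and 91.8 FPKM in sham colon (log2 change -0.64 ± 0.13). Neither pair of groups overlapped. Thrsp stayed under 1 FPKM in all KO AP libraries and passed the filter on low values only through other libraries. Of 25 genes of cholesterol and fatty acid synthesis tested, 0 were higher or lower without overlap and the median log2 change was -0.05.

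The hemoglobin genes, which mark red blood cells and reticulocytes in a bulk tissue, were low with AP. Hba-a1 measured 7.45, 1.95, 4.53 and 5.02 FPKM with AP, against 11.02, 25.5, 22.3, 16.1 and 22.2 FPKM in sham colon (log2 change -1.88 ± 0.32). Hba-a2 had a log2 change of -1.86 ± 0.29, Hbb-bs of -2.24 ± 0.45 and Hbb-bt of -1.74 ± 0.39. All 4 genes tested were lower without overlap. In bulk tissue, fewer cells of a type and less RNA per cell cannot be told apart. Hba-a1 and Hba-a2 are near copies, with 537 of 538 aligned transcript bases identical, so their separate values are uncertain. Their upstream regions, identical at all 297 aligned bases of the promoter table, are shown by Hba-a1 (chr11:32283422-32283671, plus strand), with the GATAA site of erythroid factors in capitals; 14.9% of the promoters of tested genes held GATAA on either strand.
Hba-a1: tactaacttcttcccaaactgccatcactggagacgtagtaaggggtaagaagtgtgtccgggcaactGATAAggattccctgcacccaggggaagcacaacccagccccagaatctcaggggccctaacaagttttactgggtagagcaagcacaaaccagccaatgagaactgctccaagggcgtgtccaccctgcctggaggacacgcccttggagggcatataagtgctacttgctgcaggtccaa

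Most genes of blood vessels tested were low in the same direction. Plvap, which forms the diaphragms of fenestrated capillaries, measured 13.6, 5.94, 20.2 and 24.1 FPKM with AP, against 48.2, 44.96, 27.2, 32.2 and 35.5 FPKM in sham colon (log2 change -1.31 ± 0.35). Sox18, a transcription factor of endothelial cells, measured 1.89, 1.53, 2.36 and 2.89 FPKM with AP, against 4.44, 3.48, 5.52, 5.62 and 4.87 FPKM in sham colon. Eng, the endothelial co-receptor endoglin, measured 5.12, 4.41, 6.93 and 7.23 FPKM with AP, against 10.9, 7.61, 11.2, 10.7 and 9.84 FPKM in sham colon. These 3 genes of 20 endothelial genes tested were lower without overlap, none was higher without overlap, and the list's median was -0.43. The endothelial genes together summed to between 43.9 and 94.3 FPKM with AP and between 90.4 and 116 FPKM in sham colon. AP replicate 5 had the highest sum of its group and lay inside the sham range. Pecam1, the partner of CD177, had a log2 change of -0.30 ± 0.22 (limma, adjusted p = 0.606). Of 10 endothelial activation genes tested, 9 had a negative log2 change, the median was -0.35 and none was without overlap. Edn1 went the other way, with a log2 change of 1.69 ± 0.64. It measured 30.9, 20.5, 5.58 and 4.68 FPKM with AP, against 13.5, 1.81, 1.74, 2.49 and 1.38 FPKM in sham colon. With sham replicate 1 left out, it was the 1 of 10 higher without overlap, against 4.6% of all genes.

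Adipocyte genes were also low. Fabp4, a fatty acid binding protein of adipocytes and capillary endothelium, measured 4.33, 3.14, 7.74 and 12 FPKM with AP, against 14.9, 20.5, 12.4, 17.2 and 13.1 FPKM in sham colon (log2 change -1.21 ± 0.31). Retn, the gene of the adipokine resistin, stayed under 0.4 FPKM in the AP libraries and measured 0.882, 0.379, 0.988, 2.38 and 0.529 FPKM in sham colon. Adipoq, the gene of adiponectin, was listed at 0 in all AP libraries, and at 1.18, 0.0598, 0.823, 1.32 and 0.0598 FPKM in sham libraries. Cfd, the gene of adipsin, measured 0.221, 0.352, 4.81 and 0 FPKM with AP, against 12.3, 1.996, 12.3, 33.2 and 2.04 FPKM in sham colon, and these groups overlapped. Fabp4, Retn and Adipoq were the 3 of 10 adipocyte genes tested that were lower without overlap, and the median was -0.67. Retn and Adipoq separated near the lower limit, by 0.367 against 0.379 FPKM and by 0 against 0.0598 FPKM. Both passed the filter on low values only through libraries outside the KO AP group, so their place in the count is no independent support. The list's sums overlapped, at 27.0 to 68.4 FPKM with AP and 47.2 to 90.9 FPKM in sham colon. Smooth muscle and matrix genes had medians of -0.43 and -0.31, with 0 genes lower without overlap among smooth muscle genes and 1, Mmp2, among matrix genes. The amount of attached fat and muscle in each piece of colon is not given.

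In the other direction stood genes for RNA processing. Ogt, the enzyme that attaches N-acetylglucosamine to nuclear and cytosolic proteins and whose transcript is held in the nucleus by a retained intron, measured 31.7, 58.5, 59.1 and 64.0 FPKM with AP, against 21.2, 11.3, 22.7, 16.7 and 20.8 FPKM in sham colon. Its log2 change was 1.46 ± 0.26, the groups did not overlap, and the adjusted p in the fit with all 4 groups was 0.0498. Pnisr, which encodes a serine- and arginine-rich protein, measured 24.5, 35.0, 34.8 and 30.0 FPKM with AP, against 22.0, 17.7, 16.7, 14.5 and 17.1 FPKM in sham colon (log2 change 0.79 ± 0.16). Tia1, an RNA-binding protein of splicing and stress granules, measured 12.1, 12.7, 14.0 and 13.7 FPKM with AP, against 9.69, 7.39, 10.1, 7.40 and 7.53 FPKM in sham colon.

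Ogt, Pnisr and Tia1 with Srsf5, Rbm39 and Ddx5 made 6 of 16 genes of the nuclear-retained RNA and splicing list that were higher without overlap, and none was lower without overlap. Of these, Ddx5 had an adjusted p of 0.536 in the limma fit. The list's median log2 change was 0.46. The splicing kinase genes Clk1 and Clk4 had log2 changes of 0.60 and 0.54 (adjusted p of 0.464 for Clk4, limma). Sham replicate 1 lay inside the AP range of both, and sham replicate 2 inside that of Clk4. When sham replicate 1 was left out, 9 of the 16 were higher without overlap, against 4.6% of all genes, and the median was 0.48. Transcript length moved with this result: across 14937 genes, Spearman's rho between log2 change and the length of the longest transcript was 0.24. In WT colon it was -0.32, the opposite direction, and both trends enter the differences between genotypes given below. In the 3732 genes with the longest transcripts, 3.08% were higher without overlap and 0.563% lower, against 0.75% higher and 2.14% lower in the 3735 genes with the shortest. With the length trend removed, the list's median was 0.39.

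Other single genes that were named had varied functions. Matr3, the nuclear matrix protein matrin 3, measured 21.8, 26.4, 21.0 and 23.9 FPKM with AP, against 14.5, 14.8, 14.8, 14.6 and 15.1 FPKM in sham colon (log2 change 0.62 ± 0.12). Its sham libraries spanned less than 1 FPKM. Zfp280d, a zinc finger gene, measured 8.97, 9.67, 8.77 and 9.33 FPKM with AP, against 4.91, 5.16, 6.27, 4.46 and 3.96 FPKM in sham colon (log2 change 0.79 ± 0.15). Wdr37, a WD repeat gene, averaged 5.69 ± 0.34 FPKM with AP (SD, n = 4) and 3.63 ± 0.44 FPKM in sham colon (SD, n = 5), without overlap. Zfp286os, a transcript on the opposite strand of Zfp286, had a log2 change of 0.78 ± 0.17, and without stated strandedness its reads cannot be told apart from those of its neighbour. The peptide transporter gene Slc15a1 measured 68.5, 92.3, 33.8 and 49.7 FPKM with AP, against 31.9, 17.7, 18.3, 29.4 and 24.1 FPKM in sham colon (log2 change 1.24 ± 0.29). Slc26a3, the chloride and bicarbonate exchanger of colonocytes, measured 565, 603, 886 and 429 FPKM with AP, against 480, 455, 193, 220 and 239 FPKM in sham colon, and the groups overlapped.

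With sham replicate 1 left out, Mrtfb and Hist2h2aa1 passed the adjusted threshold in the limma fit, each with an adjusted p of 0.00228. That library resembled the AP group, so its removal favours such passes. Mrtfb, a coactivator of serum response factor, measured 4.56, 4.04, 4.23 and 4.19 FPKM with AP, against 3.72 FPKM in sham replicate 1 and 0.0996, 0.439, 0.301 and 0.297 FPKM in sham replicates 2 to 5. Hist2h2aa1, a histone H2A gene, measured 23.9, 89.4, 25.9 and 67.8 FPKM with AP, against 31.2 FPKM in sham replicate 1, 0 FPKM in replicates 2 to 4 and 0.433 FPKM in replicate 5. In WT colon Hist2h2aa1 was listed at 0 in 3 of 5 AP and 3 of 5 sham libraries and reached 54.6 FPKM elsewhere, so an on or off pattern was also present there. Mrtfb averaged 2.90 ± 2.1 FPKM in WT AP and 6.22 ± 0.64 FPKM in WT sham colon (SD, n = 5 each), a log2 change of -1.07 ± 0.36 (limma, adjusted p = 0.791). The WT sham libraries all lay above the KO sham libraries. Histone H2A genes are near copies of each other, which leaves the value of any one uncertain.

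After hemoglobin, the lists with the lowest medians were those of interferon genes, whose levels also differed widely between libraries of the same group. All 29 type I interferon-stimulated genes tested had a negative log2 change, with a median of -1.23, yet none was lower without overlap. Isg15, a ubiquitin-like protein induced by interferon, measured 208, 6.09, 186 and 8.93 FPKM with AP, against 18.6, 1336, 480, 654 and 165 FPKM in sham colon. AP replicates 3 and 5 and sham replicate 1 were low, AP replicates 1 and 4 lay between, and sham replicates 2 to 4 were high. Isg15 had a log2 change of -2.72 ± 1.38 (limma, adjusted p = 0.485). The 24 interferon gamma effector genes also all had a negative log2 change (median -1.28, none without overlap). Cxcl10, a chemokine that attracts T cells, measured 31.2, 1.45, 16.5 and 1.51 FPKM with AP, against 13.7, 35.9, 26.6, 36.4 and 78.1 FPKM in sham colon. Leaving out sham replicate 1, the median was -1.75 for type I genes and -1.80 for interferon gamma genes. In that setting 1 of 29 and 6 of 24 were lower without overlap, against 6.51% of all genes. When each library was left out in turn, the medians ranged from -1.77 to -0.57 for type I genes and from -1.80 to -0.67 for interferon gamma genes.

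**Figure D2:**
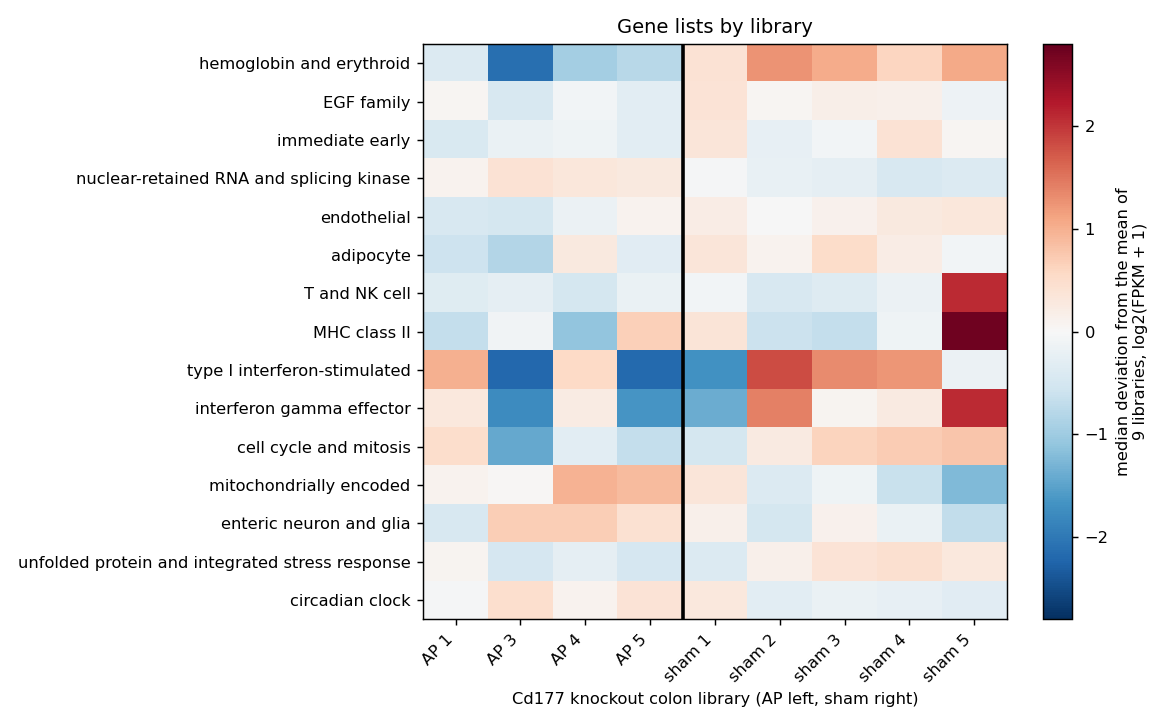
Median deviation of the members of 15 gene lists from the mean of the 9 KO colon libraries, in log2(FPKM + 1), with AP libraries left of the line and sham libraries right of it. Hemoglobin genes are below 0 in each AP library and above 0 in each sham library, whereas interferon genes are low in AP replicates 3 and 5 and sham replicate 1.

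The summed level of T and NK cell genes stood apart in 1 library. It was 7.003 to 19.3 FPKM in the AP libraries and 8.20 to 19.7 FPKM in sham replicates 1 to 4, but 456 FPKM in sham replicate 5. Gzmb, the cytotoxic protease granzyme B, stayed under 0.6 FPKM in all AP libraries and sham replicates 1 to 4, and reached 56.8 FPKM in sham replicate 5. The chemokine gene Ccl5 stood at 168 FPKM there and under 2.3 FPKM in the other KO libraries. The adjusted p was 0.642 for Gzmb, 0.641 for Ccl5 and 0.647 for Cd74 with limma. MHC class II genes had the same high library: Cd74 measured 111, 175, 70.2 and 270 FPKM with AP, against 237, 124, 112, 193 and 2235 FPKM in sham colon. In WT colon the T and NK cell sum was 61.1 to 594 FPKM with AP and 204 to 303 FPKM after sham operation, so sham replicate 5 was the KO library within the WT range. Lck, a kinase of T cells, was the 1 of 23 T and NK cell genes tested that was lower without overlap.

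Neutrophil genes were near the lower limit. Of 21 mature neutrophil genes, 7 passed the filter, with a median log2 change of -0.06 and none without overlap. S100a8 and S100a9, the main cytosolic proteins of neutrophils, were under 2 FPKM in all AP libraries and under 3 FPKM in all sham libraries (adjusted p of 0.907 for S100a8 and 0.766 for S100a9, limma). The granule genes Mpo and Elane were at 0 in all AP libraries and under 0.2 FPKM in all sham libraries. Ly6g, a surface marker of mouse neutrophils, was listed at 235 to 768 FPKM with AP and at 116 to 488 FPKM in sham colon, while those defining neutrophil genes were at or near 0 (limma, adjusted p = 0.655 for Ly6g).

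The summed level of cell cycle genes was lower in AP replicates 3 to 5 and in sham replicate 1 than in the other libraries. All 31 tested had a negative log2 change (median -0.80), and none was without overlap. At an unadjusted p under 0.05, 13 of them were lower, against 6.08% of all genes. By the same measure 2 of 29 type I interferon, 4 of 24 interferon gamma and 7 of 20 endothelial genes were lower. Higher were 9 of 22 enteric neuron and glia genes and 9 of 13 mitochondrially encoded genes, against 4.58% of all genes. Birc5, the gene of the mitotic protein survivin, measured 42.0, 9.02, 30.1 and 20.9 FPKM with AP, against 27.8, 93.4, 52.7, 54.8 and 65.1 FPKM in sham colon. Leaving out sham replicate 1, the median of the cell cycle list was -1.07, and 8 genes were lower without overlap, against 6.51% of all genes. When each library was left out in turn, this median ranged from -1.08 to -0.55. Of 21 genes of the unfolded protein and integrated stress response, 17 had a negative log2 change, the median was -0.295 and none was without overlap. Leaving out sham replicate 1, the median was -0.39 and 5 were lower without overlap, against 6.51% of all genes. Manf, a secreted stress protein of that compartment, measured 37.5, 35.5, 34.9 and 37.5 FPKM with AP, against 34.7 FPKM in sham replicate 1 and 80.9, 74.7, 87.4 and 74.6 FPKM in sham replicates 2 to 5. Creld2 measured 21.5 FPKM in sham replicate 1 as well, below all 4 AP libraries, and 47.9 to 57.1 FPKM in the other sham libraries. With sham replicate 1 left out, Manf had a log2 change of -1.10 and a limma adjusted p of 0.0546.

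**Figure D3:**
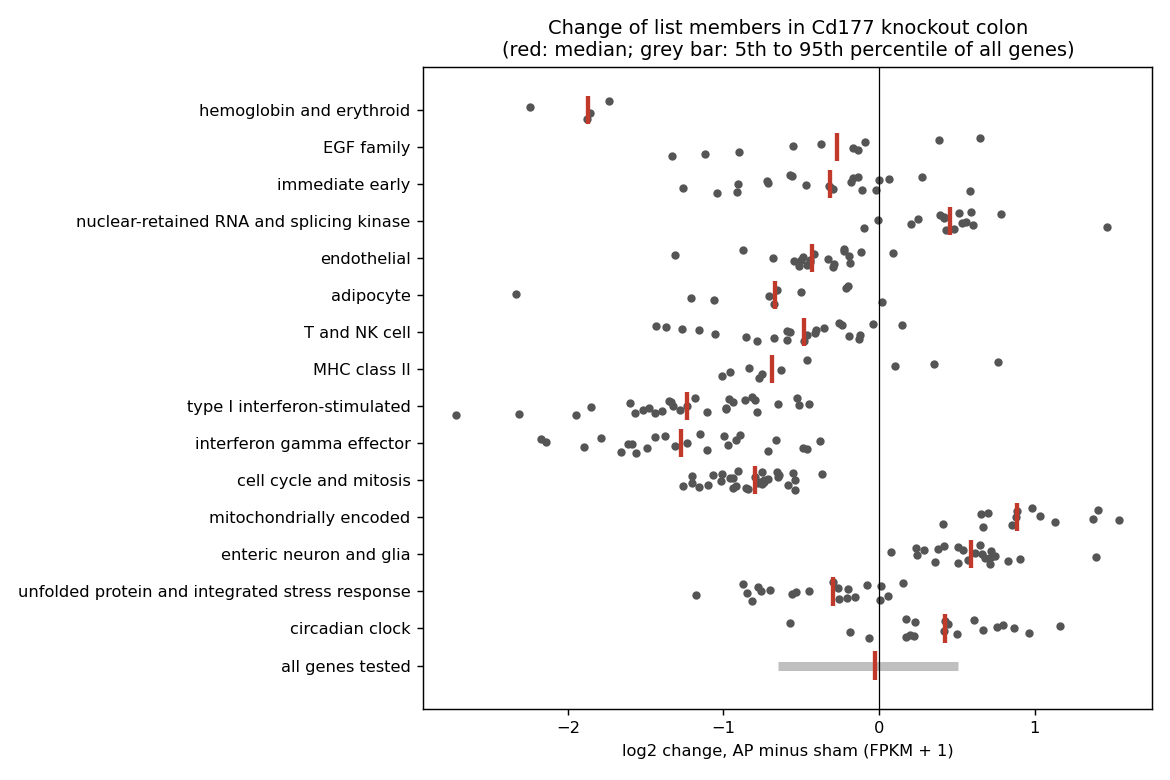
Log2 change, AP minus sham, of each member (point) of 15 gene lists in KO colon, with list medians in red and the 5th to 95th percentile of all genes tested as a grey bar. Medians run from -1.87 for hemoglobin genes to 0.89 for mitochondrially encoded genes, against -0.03 for all genes.

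Mitochondrially encoded genes took a larger share of all FPKM with AP, 10.6% to 19.1% against 4.62% to 13.5% in sham colon. All 13 had a positive log2 change (median 0.89), and none was without overlap. The gene mt-Nd5, a subunit of complex I, measured 797, 1077, 1777 and 1571 FPKM with AP, against 990, 281, 704, 536 and 239 FPKM in sham colon, with sham replicate 1 inside the AP range. With sham replicate 1 left out, 9 of 13 were higher without overlap, against 4.6% of all genes. The nuclear genes of the respiratory chain had the opposite sign, with all 35 negative (median -0.33) and 1, Ndufv1, lower without overlap (limma, adjusted p = 0.464). Their sum was 17500 FPKM in sham replicate 2, against 7967 to 9447 FPKM in the other sham and 6332 to 9322 FPKM in the AP libraries. When each library was left out in turn, their median ranged from -0.46 to -0.14. The mitochondrially encoded share is a property of a library as well as of a tissue, and its part in the other results was not tested.

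Enteric neuron and glia genes were on the higher side, with 22 of 22 positive and a median of 0.59. Tac1, the gene of substance P, measured 57.3, 36.8, 60.7 and 35.1 FPKM with AP, against 24.1, 29.4, 27.4, 30.6 and 24.1 FPKM in sham colon (log2 change 0.75 ± 0.20), and was the 1 gene without overlap. With sham replicate 1 left out there were 2 such genes, against 4.6% of all genes, and the list's median was 0.66. Vip, the gene of vasoactive intestinal peptide, measured 18.9, 80.5, 43.0 and 59.1 FPKM with AP, against 17.2, 9.82, 17.7, 23.6 and 16.4 FPKM in sham colon (log2 change 1.39 ± 0.38). AP replicate 1 was the low library for Vip and for the sum of the list, at 185 FPKM against 295 to 408 FPKM in the other AP libraries and 117 to 221 FPKM in sham colon.

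Circadian clock genes had a median log2 change of 0.43, with 1 of 19 higher without overlap. Leaving out sham replicate 1, whose clock sum of 487 FPKM was the highest of its group, gave a median of 0.54. In that setting 4 of 19 were higher without overlap, against 4.6% of all genes. The 1 gene among all libraries was Nr1d2, a repressor of the clock, at 24.2, 21.7, 26.1 and 22.4 FPKM with AP, against 21.5, 14.8, 14.5, 6.04 and 10.4 FPKM in sham colon. Dbp, an output factor of the clock, measured 65.1, 131, 57.5 and 120 FPKM with AP, against 108, 48.5, 40.8, 10.9 and 35.0 FPKM in sham colon (limma, adjusted p = 0.471). The time of day of collection is not given, so time and treatment cannot be told apart for these genes.

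Epithelial lists differed in their medians. Antimicrobial and acute phase genes had a median log2 change of -0.39 (21 tested), regenerative epithelium genes of -0.28 (18 tested, of which Plaur was lower without overlap), colon identity genes of -0.23 (12 tested) and ion and water transport genes of 0.18 (27 tested). Junction genes had a median log2 change of -0.01 (28 tested) and absorptive colonocyte genes of 0.00 (21 tested, of which Slc15a1 was higher without overlap). Stem cell and Wnt target genes had a median of 0.02 (18 tested, none without overlap). Goblet cell genes had a median of -0.51, with 18 of 22 negative and none without overlap, and the median was -0.22 without sham replicate 1. Muc2, the main gel-forming mucin, measured 175, 140, 308 and 113 FPKM with AP, against 423, 372, 846, 128 and 132 FPKM in sham colon, with sham replicates 4 and 5 inside the AP range (limma, adjusted p = 0.587).

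**Figure D4:**
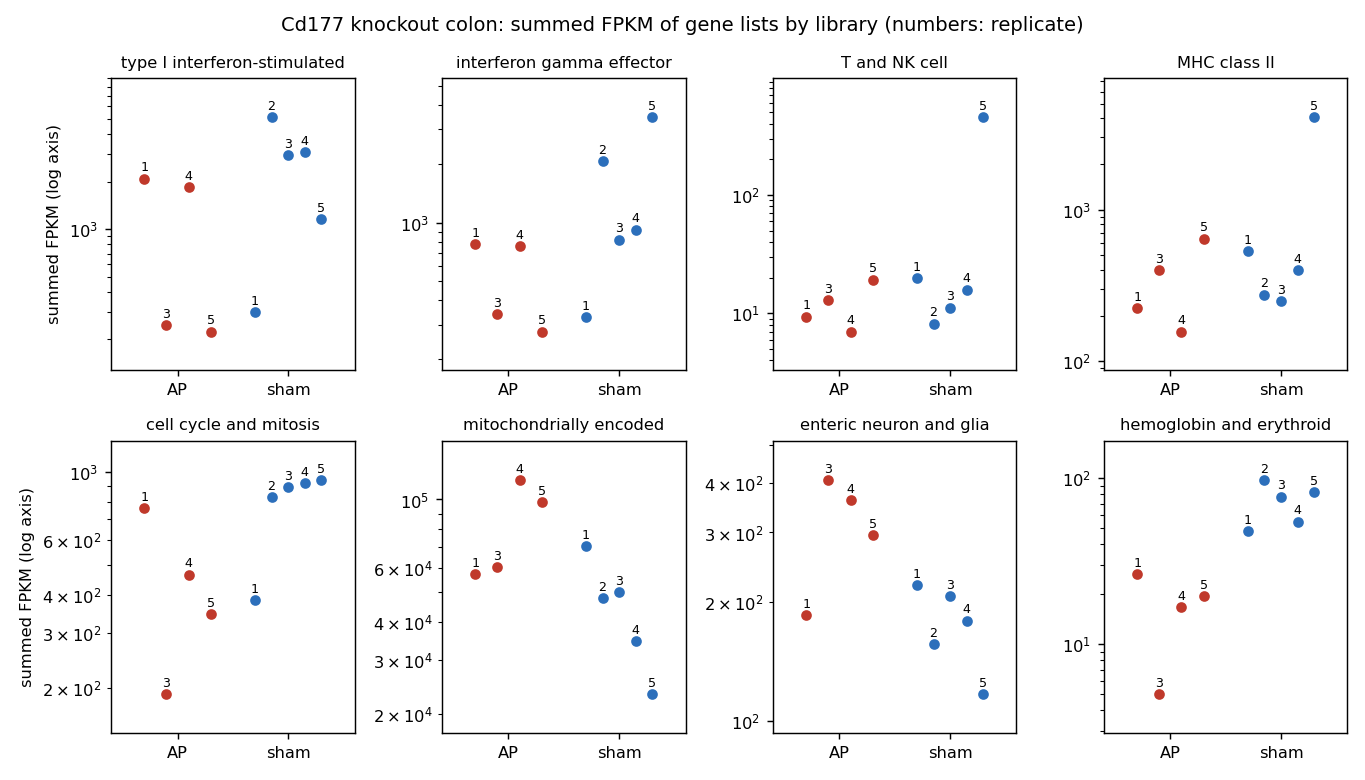
Summed FPKM of 8 gene lists in each KO colon library on a log axis, AP left and sham right, with replicate numbers. T and NK cell genes sum to 456 FPKM in sham replicate 5 and to at most 19.7 FPKM in the other libraries, and hemoglobin genes to 4.997 to 26.4 FPKM with AP and 47.8 to 97.6 FPKM in sham colon.

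The responses of the genotypes were then compared by the difference of log2 changes, KO minus WT, in the fit with all 4 colon groups. No gene passed (0.0% of 15001, lowest adjusted p 0.0783, 2821 genes at an unadjusted p under 0.05). Without KO sham replicate 1, 1170 genes passed, 330 of them with a positive difference. Without KO AP replicate 1, 228 passed, 57 with a positive difference. Both libraries correlated more with the opposite KO group than with their own. Leaving either out favours a wider gap between the KO groups, and the passes in these settings are no independent support. KO AP replicate 4 also correlated more with the opposite KO group, and without it 0 genes passed (limma, lowest adjusted p 0.116). Why these settings differed was not tested. AP against sham in WT colon called 0 genes in the same fit, with 938 at an unadjusted p under 0.05. The 2 responses share no libraries.

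Mid1ip1 had the lowest p of the difference. Its log2 change was -0.64 in KO colon and 0.33 in WT colon, a difference of -0.97 ± 0.15 (adjusted p = 0.0783). Mid1ip1 averaged 54.6 ± 3.49 FPKM in KO AP and 86.0 ± 7.80 FPKM in KO sham colon (SD, n = 4 and 5), against 43.7 ± 6.92 FPKM in WT AP and 34.3 ± 1.54 FPKM in WT sham colon (SD, n = 5 each). The KO AP mean therefore lay between the KO sham and the WT means. Matr3 differed by 0.75 ± 0.13 (adjusted p = 0.0809) and averaged 23.3 ± 2.42 FPKM in KO AP and 14.8 ± 0.21 FPKM in KO sham colon, against 15.9 ± 0.86 FPKM in WT AP and 17.5 ± 2.02 FPKM in WT sham colon. Without KO sham replicate 1, the difference of Mid1ip1 had an adjusted p of 0.00447 and that of Matr3 of 0.0072.

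Areg and Epha2 were on the lower side with AP in both genotypes. The log2 change of Areg was -1.33 in KO and -0.61 in WT colon, and the difference was -0.72 ± 0.25 (adjusted p = 0.15). Areg averaged 13.2 ± 2.71 FPKM in KO AP and 35.0 ± 7.08 FPKM in KO sham colon, against 11.7 ± 2.34 FPKM in WT AP and 18.4 ± 3.67 FPKM in WT sham colon. Epha2 had log2 changes of -0.92 in KO and -0.62 in WT colon, a difference of -0.29 ± 0.26 (adjusted p = 0.55). For Ogt the changes were 1.46 and -0.02, a difference of 1.49 ± 0.34 (adjusted p = 0.11), and the WT means of 32.8 FPKM with AP and 33.9 FPKM after sham operation lay between the KO means of 53.3 FPKM with AP and 18.5 FPKM after sham operation. Hba-a1 changed by -1.88 in KO and 0.16 in WT colon on the log2 scale, a difference of -2.03 ± 0.60 (adjusted p = 0.11). It averaged 4.73 ± 2.25 FPKM in KO AP and 19.4 ± 5.81 FPKM in KO sham colon (SD). In WT colon it averaged 41.41 ± 20.05 FPKM with AP and 40.84 ± 29.92 FPKM after sham operation (SD). Libraries of the WT sham group alone ranged from 16.5 to 90.4 FPKM. Without KO sham replicate 1 the limma adjusted p was 0.0158 for the difference of Ogt and 0.0349 for that of Hba-a1. Areg and Epha2 did not pass in that setting, with adjusted p-values of 0.12 and 0.553.

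**Figure D5:**
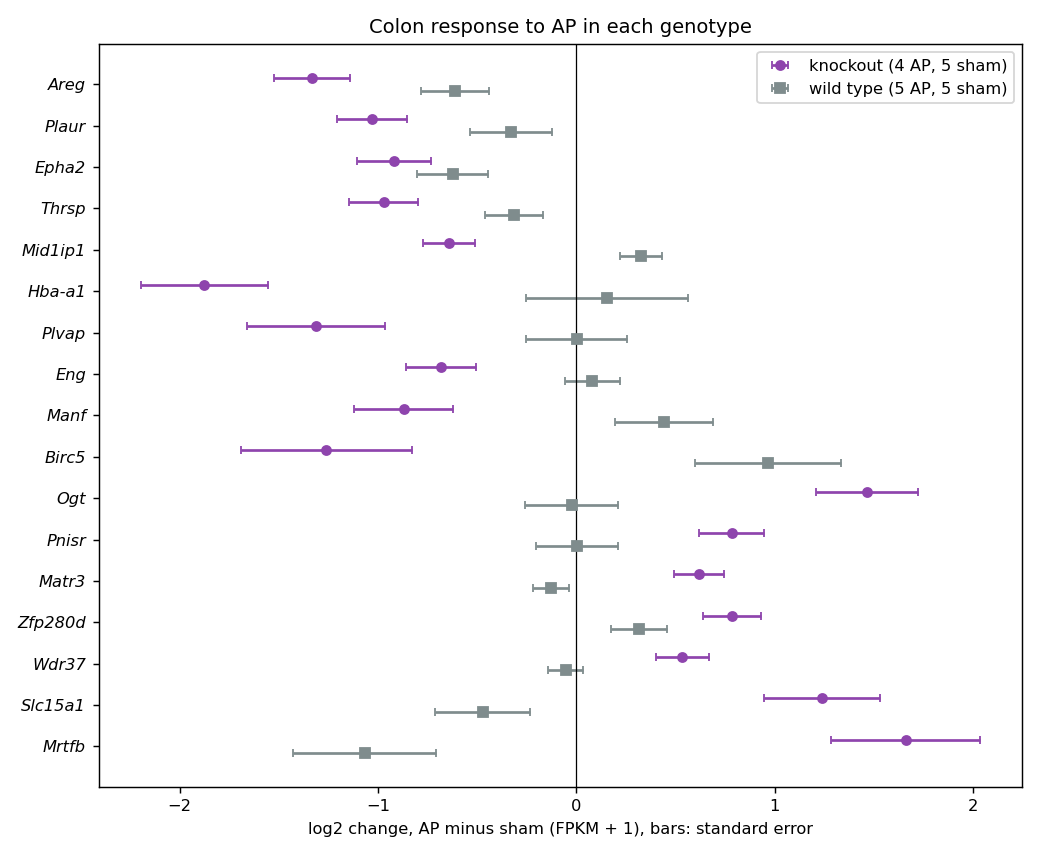
Log2 change, AP minus sham, of 17 genes in KO colon (circles) and in WT colon (squares), with standard errors. Areg and Epha2 are below 0 in both genotypes, while Mid1ip1 is at -0.64 in KO and 0.33 in WT colon.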

How the data were processed

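RNA of colon was extracted with Trizol, enriched for mRNA and sequenced on an Illumina platform, per the labels' protocols. The authors deposited FPKM in 1 table of 19 colon libraries and 55357 genes, of which 52081 had a symbol. The submitters' processing notes list HISAT2 2.1.0, StringTie 1.3.3b and the build mm39; annotation, filters and strandedness were not stated. Library totals came from genes with 1 annotated transcript, whose values were whole reads within 0.05 at 98.8% to 99.2%; no count test was run on them, and the totals bear on counting error only.

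Tests covered 15001 genes that reached 1 FPKM in 4 or more colon libraries, on the log2(FPKM + 1) scale, on which low genes show less than their true change. The KO groups were fitted alone with limma 3.58.1 in R 4.3.3 (mean-variance trend, Benjamini-Hochberg adjustment), because the KO libraries spread more than the WT ones. The WT change and the difference of responses came from a fit of all 4 colon groups. Cd177 was compared by exact permutation tests in scipy 1.17.1 (Python 3.11.15). Lung libraries were not used here.

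The members and the 50 gene lists (1018 of 1020 entries in the table) were chosen with earlier results of these data known; lists are described by counts and medians only. Since fewer than 10 genes passed, the 10 genes with the lowest p, the 5 lowest in each direction and up to 4 of each list with the lowest p were available for naming, and Cd177 was always named; predicted genes, pseudogenes, receptor segments and clone names were left out of the first 2 sets. Not every gene so available is printed. The genes called by an alternative (Mid1ip1, Wdr37, Mrtfb, Hist2h2aa1) and Btc, Nrg1, Tgfa, Egf, Egfr, Erbb2, Adipoq, Rbm39, Ddx5, Clk1, Clk4, Gzmb, Ccl5, Dbp, Mpo, Elane, Sis and Apoa4 were named after their values were seen. Alternatives covered the pseudocount, the filter, TPM and upper quartile scaling, library weights, robust moderation, the replicate block, a length trend and leaving out each library.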

Additional observations from a re-analysis of the deposited data

Results flagged for a closer look

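Within each KO group, a library far from the others was looked for in 206 sets of values, of genes and of list sums named in the text, and 25 were found; chance flags about 1 in 20 sets. Sham replicate 1 was the far library for Manf (34.7 FPKM), Creld2 (21.5 FPKM), Pdia6 (60.1 FPKM), Mrtfb (3.72 FPKM), Hist2h2aa1 (31.2 FPKM), the cell cycle sum (385 FPKM) and the circadian clock sum (487 FPKM). Sham replicate 5 was the far library for Lck (12.8 FPKM), Gzmb (56.8 FPKM), Ccl5 (168 FPKM), Cd74 (2235 FPKM), H2-Ab1 (606 FPKM), S100a8 (2.704 FPKM), Fabp6 (50.3 FPKM), the T and NK cell sum (456 FPKM), the MHC class II sum (4077 FPKM) and the adipocyte sum (47.2 FPKM). AP replicate 4 was the far library for Areg (17.3 FPKM), Cfd (4.81 FPKM), Cidec (3.62 FPKM), Rbm39 (116 FPKM) and Ddx5 (265 FPKM). AP replicate 1 was the far library for Ogt (31.7 FPKM), Fabp6 (34.4 FPKM) and Creld2 (26.1 FPKM).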

How the results depend on the processing

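The count of 0 genes past the adjusted threshold in KO colon was the same under each setting but 3: it was 6 with all 4 colon groups in the fit, 2 without sham replicate 1 and 1 without sham replicate 2, and leaving out each library gave 0 to 2. At an unadjusted p under 0.05 the count of 1599 became 2798 with all 4 groups, 3565 with library weights and 741 with the replicate block, and 961 to 2716 when each library was left out. Libraries with equal replicate numbers deviated together in no stable way (correlations of -0.52, -0.07, -0.45 and 0.06 for numbers 1, 3, 4 and 5). So few correlations cannot decide whether equal numbers mark a shared batch or handling. The block called 0 genes in either comparison. The difference of responses called 0 to 1170 genes when each library was left out. Depth was 77.8 M reads or more in each KO library. Of 1663 gene values recomputed, 13 changed sign: Hoxd13 ranged from -0.236 without AP replicate 1 to 1.673 without AP replicate 4, Tgfa from -0.351 without AP replicate 4 to 0.055 without AP replicate 3, and Egfr from -0.262 without AP replicate 1 to 0.069 without AP replicate 5, with 0.026 without AP replicate 3. The log2 change of S100a8 ranged from -0.365 without AP replicate 1 to 0.168 without sham replicate 5, with 0.066 without AP replicate 3, and was 0.018 with the length trend removed. Fabp6 ranged from -1.306 without AP replicate 1 to 0.203 without sham replicate 5. Slc5a1 ranged from -0.121 without AP replicate 1 to 0.266 without AP replicate 5, with -0.012 without AP replicate 4, -0.027 without sham replicate 1 and -0.024 without sham replicate 5, and was -0.105 with library weights. The adjusted p in the knockout limma fit was 0.871 for Hoxd13, 0.864 for Fabp6 and 0.945 for Slc5a1. Of 950 list medians recomputed, 945 moved by less than the spread between libraries. The Cd177 check kept its side of the threshold in each recomputation, with differences of -63.4 to -56.7 FPKM with AP and -44.4 to -41.0 FPKM after sham operation.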
